A study of Mus musculus with 8 samples.

Results

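The genes described here are 39 genes of the apoptosis machinery and of the Bcl2 family, read in embryonic kidneys of p53 null mice and of p53 wild-type mice, both C57BL/6 at embryonic day 15.5. A probe was taken for a gene where its RefSeq identifier named one of the listed symbols. Of the 39 genes 38 had a probe by this rule and 36 had a probe bright enough to be measured, among 12000 genes tested in all. On each of 8 arrays with 2 colours, null RNA in one dye was hybridised against wild-type RNA in the other, and the arrays formed 3 biological replicates with swapped dyes. How many embryos were pooled and which part of the p53 gene is deleted are not given in the sources used here. Of the 36 measured genes 25 promote cell death, 8 oppose it, and Tradd, Ripk1 and Dffa have roles on both sides.

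Apoptosis runs through mitochondria or through death receptors. In the mitochondrial route, BH3-only proteins bind the survival proteins of the Bcl2 family and free the pore formers, and the leak of cytochrome c then lets Apaf1 activate caspase 9. In the death receptor route, ligand-bound receptors recruit adaptors that activate caspase 8. The transcription factor p53 induces several of these genes after damage, and in the developing kidney loss of Bcl2 leaves too few nephrons.

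Each value is the log2 of null over wild type, averaged over the dye orientations within a replicate. Means carry the SD between the 3 replicates. Levels are normalized brightness in each genotype, which can be set against each other for 1 probe but not between probes. Replicate 1 (4 arrays) lay on slide 1 and replicates 2 and 3 (2 arrays each) on slide 2. The ratios of the 36 genes correlated at 0.97 between replicates 2 and 3, at −0.25 between replicates 1 and 2 and at −0.37 between replicates 1 and 3, across genes that share arrays. Over all tested probes these correlations were 0.93, 0.06 and −0.15. The scan names also give the wild-type RNA of replicates 2 and 3 the same number. Over all tested probes the wild-type channel differed between replicates 2 and 3 with an SD of 0.108, less than the 0.117 between repeated array pairs of replicate 1, while the null channel differed with 0.17 against 0.116 for those repeats. Replicates 2 and 3 may therefore share a wild-type extract, in which case p-values over 3 replicates are too small. In bulk RNA, fewer cells of a type and less RNA per cell cannot be told apart.

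The targeted gene Trp53 had levels of 255.6, 313.4 and 311.5 in null kidneys of replicates 1, 2 and 3, against 541.9, 435.6 and 424.9 in wild type. On this probe null was lower on 8 of 8 arrays (−0.67 ± 0.36, limma adjusted p = 0.279), while a second Trp53 probe had 0.16 ± 0.13 (limma adjusted p = 0.387). Whether either probe lies in the deleted part is not known here, and one outside it would be no check of the labels. Of 17 kidney markers 14 were measured, among them Six2, Pax2 and Wt1, and each was well above background in both genotypes on all 8 arrays. The mean of 10 of the 14 markers was lower in null, and 5 kept that sign in every replicate, among them Osr1 at −0.45 ± 0.12. On slide 2 the median of the 14 was −0.09, and 4 were higher in null. Foxd1 and Gata3 were lowest there, at −0.74 and −0.67, against 0.13 and 0.11 in replicate 1. Cited1 and Nphs1 were highest there, at 0.48 and 0.40, against −0.23 and −0.40 in replicate 1. The part of these markers in the apoptosis ratios was not tested. Ret and Hoxd11 were not among the measured genes.

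None of the apoptosis genes passed the threshold of 0.05 after Benjamini-Hochberg adjustment over all probes (0 of 36, lowest adjusted p = 0.279 by limma, where 0% of all 20865 probes passed). Unadjusted p was under 0.05 for 4 of them, Bcl2l11, Bmf, Mcl1 and Tnfrsf10b, against 18.2% of all genes. The first 3 were higher in null, as 9.23% of all genes were at this p, and Tnfrsf10b was lower, as 8.92% were. By their mean ratio 23 of the 36 were higher and 13 lower in null, where 50.8% of all genes were higher. The ratio had the same sign in all 3 replicates for 8 genes, against 40.2% of all genes. Of these 4 were higher and 4 lower in null, where 20.4% and 19.7% of all genes were, and 0 of the 36 had the same sign on all 8 arrays, against 15.5%. Neither a small p nor a shared sign was thus more frequent among the apoptosis genes than among all genes.

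**Figure D1:**
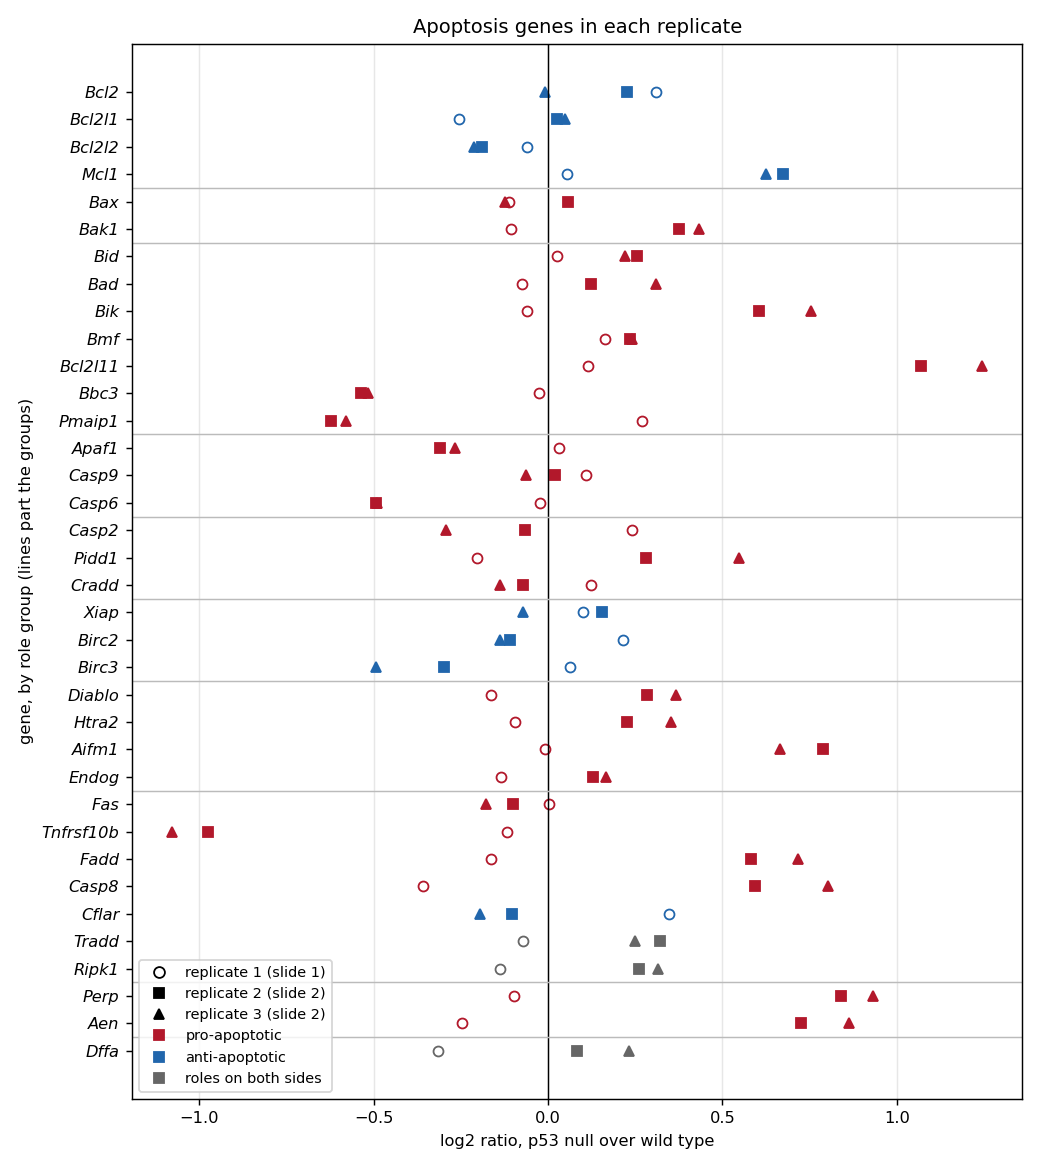
Each of the 36 measured genes has its log2 ratio of null over wild type in replicates 1 (open circles), 2 (squares) and 3 (triangles), with pro-apoptotic genes in red, anti-apoptotic genes in blue and genes with roles on both sides in grey. Squares and triangles lie together and apart from the circles for most genes, and Bcl2l11 and Tnfrsf10b have the outermost mean ratios, 0.81 and −0.72.

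The next comparison set transcripts that promote death against those that favour survival. Of the 25 measured pro-apoptotic genes 16 were higher and 9 lower in null, with a median ratio of 0.16. Of the 8 anti-apoptotic genes 4 were higher and 4 lower, with a median of 0.00, and the median of all tested genes was 0.00 too. The difference of the medians, pro-apoptotic minus anti-apoptotic, was 0.16 ± 0.26. Replicates 1, 2 and 3 gave −0.14, 0.26 and 0.34, so its sign in replicate 1 was opposite to that in replicates 2 and 3. The spread between replicates exceeded the difference. No test was run on these medians, since the genes were chosen with results known. The split followed the slides. The pro-apoptotic median was −0.06, 0.23 and 0.24 in replicates 1, 2 and 3. The anti-apoptotic median ran the other way, with 0.08, −0.04 and −0.10. All tested genes had medians of −0.02, 0.02 and 0.03. In replicate 1, 15 of the 36 genes were higher in null, against 46.1% of all genes, and on slide 2 this held for 22 of 36, against 53.8%. Without replicate 3 the pro-apoptotic median was 0.06, the anti-apoptotic median 0.09 and the difference −0.02, while the difference was 0.28 without replicate 1 and 0.09 without replicate 2. With 1 value per slide, which gives both slides the same weight, the medians were 0.08 and 0.06 and the difference 0.02.

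**Figure D2:**
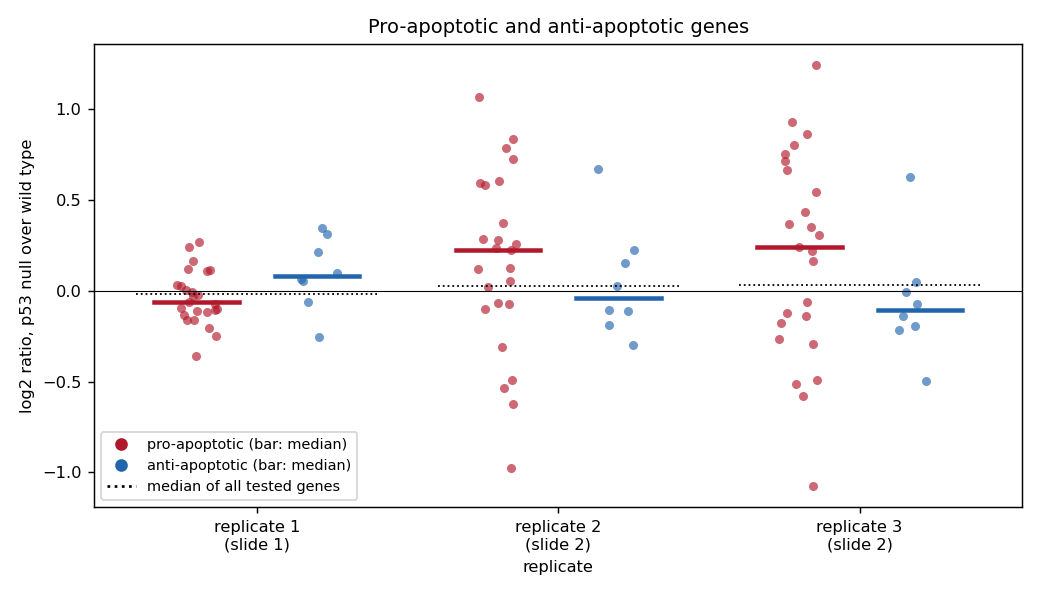
Points are the log2 ratios (null over wild type) of the 25 pro-apoptotic genes (red) and the 8 anti-apoptotic genes (blue) in each replicate, bars are their medians and dotted lines the median of all tested genes. The red bar lies below the blue one in replicate 1 and above it in replicates 2 and 3, and the red points spread more widely on slide 2.

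Within slide 2, 25 of the 36 genes passed limma's threshold (69.4%), 17 higher and 8 lower, where 60% of all tested genes (56% of probes) passed, 32.9% higher and 27.1% lower. Of the pro-apoptotic genes 14 were called higher and 6 lower there, and of the anti-apoptotic genes 1 higher and 2 lower. Each of the 8 genes with the same sign in all replicates passed there, from Tnfrsf10b at −1.03 to Bcl2l11 at 1.16, so leaving out replicate 1 brought these calls and leaving out another replicate did not. The calls rest on 2 replicates that may share a wild-type extract, and they describe slide 2 alone. With 2 values limma takes the spread mostly from all probes. The p-values within slide 2 thus follow the size of a ratio more than the gene's own spread. Bad (0.12 and 0.31) and Bcl2l2 (−0.19 and −0.21) had limma adjusted p = 0.01132 and 0.01504 there. In 25 of 36 genes (69.4%) the sign on slide 2 was opposite to that in replicate 1, against 52.8% of all genes. The median size of the ratio, taken without its sign, was 0.11 in replicate 1 and 0.29 on slide 2, against 0.14 and 0.22 over all genes.

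Other gene groups moved with the slides as well, and their part in the apoptosis ratios was not tested. All 17 measured hypoxia genes were lower in null on slide 2 (median −2.11), with a median of −0.04 in replicate 1. Their summed level was between 26860 and 29320 in null kidneys, against 28290 to 204600 in wild type, where the low value is replicate 1. The 14 measured of 17 macrophage and leukocyte genes were all higher on slide 2 (median 0.51), with a median of −0.13 in replicate 1 and summed levels of 4356 to 7531 in null against 4439 to 5011 in wild type. Only 4 of the 14 were higher in replicate 1 too: Aif1, Adgre1, Ptprc and Tyrobp (0.34, 0.32, 0.24 and 0.24). The rest were lower there, Csf1r and Fcer1g most (−0.38 each). The 4 measured of 8 liver genes were also higher on slide 2 (median 0.78, and −0.03 in replicate 1), with summed levels of 2394 to 4667 in null against 1639 to 3000 in wild type. The liver's own Alb, Apoa1, Ttr and Serpina1a were not among the measured genes, nor were the leukocyte genes Cd68, Mrc1 and Spi1. Of 8 adrenal genes 4 were measured and went both ways: Chgb had 0.14, −1.40 and −1.41, Mc2r and Pnmt had means of 0.33 and 0.41, and Cyp17a1 had −0.09. In either genotype, arrays of slide 1 had 57.8% to 62.8% of probes well above background and those of slide 2 had 46.9% to 51.4%.

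**Figure D3:**
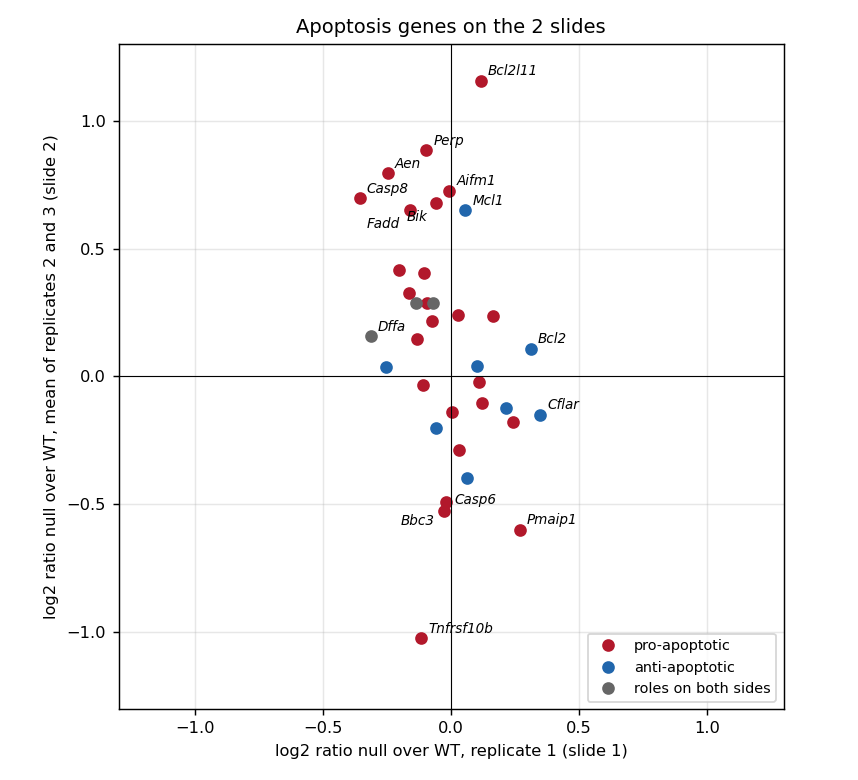
Each point is 1 of the 36 genes, with its log2 ratio (null over wild type) in replicate 1 on slide 1 along the horizontal axis and its mean ratio in replicates 2 and 3 on slide 2 along the vertical axis, both to the same scale. The points spread from −1.03 (Tnfrsf10b) to 1.16 (Bcl2l11) on slide 2 but only from −0.36 (Casp8) to 0.35 (Cflar) in replicate 1, and 25 lie in the quadrants of opposite sign.

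Of the survival proteins of the Bcl2 family, which hold the pore formers in check, 2 of 4 were higher and 2 lower. Mcl1, a short-lived survival protein, had levels of 5939, 6148 and 5890 in null kidneys, against 5717, 3856 and 3816 in wild type. Null thus stood well above wild type in replicates 2 and 3 and hardly so in replicate 1. In replicate 1 the Mcl1 ratio followed the dye, positive with null in Cy5 and negative with null in Cy3. The ratios were 0.06, 0.67 and 0.63 (0.45 ± 0.34, limma adjusted p = 0.285), and a second Mcl1 probe had 0.46. On slide 2 alone Mcl1 had 0.65 (limma adjusted p = 4.392e-09).

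Bcl2l2, the survival protein also called Bcl-w, had levels of 609.7, 859.9 and 866.5 in null against 635.6, 980.2 and 1005 in wild type. Null was the lower one in each replicate, by less than the gap between the slides. Its ratio was −0.15 ± 0.08 (limma adjusted p = 0.352), negative on 7 of 8 arrays, and −0.20 on slide 2 alone (limma adjusted p = 0.01504). Its size depended on the dye: over the replicates Bcl2l2 had −0.27 with null in Cy5 and −0.03 with null in Cy3. The sign did not hold under another scaling: with median centring in place of loess the ratio was 0.05, where the median of all genes also stood at 0.15. Bcl2, the founding survival gene, had ratios of 0.31, 0.23 and −0.01 on a probe spotted 10 times and a mean of −0.12 on a probe for its other transcript. Bcl2l1, which encodes Bcl-xL, had −0.26, 0.03 and 0.05. Neither gene kept its sign over the replicates.

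The pore formers Bax and Bak1 open the outer mitochondrial membrane. Bax, a classical p53 target, had levels of 2240, 3774 and 3236 in null against 2419, 3631 and 3524 in wild type. These overlapped, and the ratios were −0.11, 0.06 and −0.12 (−0.06 ± 0.10, limma adjusted p = 0.696). Bak1 had −0.11, 0.37 and 0.43 on its brighter probe and 0.00 ± 0.06 on a dimmer probe, so its probes did not give the same picture. Bok, the third of the pore formers, had no probe by this rule.

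The BH3-only proteins sense death signals, and 5 of the 7 measured genes were higher and 2 lower in null. Bcl2l11, which encodes Bim, binds all survival proteins of the family and is induced by FOXO factors. It had levels of 1425, 2006 and 2064 in null kidneys, against 1316, 956.8 and 871.9 in wild type, and null stood above wild type without overlap between the groups. The gap was small in replicate 1 and large on slide 2, with ratios of 0.12, 1.07 and 1.24 (0.81 ± 0.61, a 1.75-fold higher level, limma adjusted p = 0.279). Across the arrays the ratio had a lowest value of −0.15, a median of 0.59 and a highest value of 1.51, and it was positive on 6 of 8. The 2 negative arrays were both of replicate 1, with the null RNA in Cy3. On slide 2 alone the ratio was 1.16 (limma adjusted p = 4.431e-14).

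A second, dimmer Bcl2l11 probe gave 0.07, −0.41 and −0.29 (−0.21 ± 0.25). The probes thus had opposite signs on slide 2, and the direction of Bcl2l11 rests on which probe is taken. Both probes carry the identifier of the same RefSeq transcript.

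Bmf, a BH3-only protein released from the cytoskeleton when cells detach, had levels of 2714, 1295 and 1288 in null against 2422, 1101 and 1091 in wild type. Null was higher by a like margin in each replicate although the slides differed in level. The ratios were 0.16, 0.23 and 0.24 (0.21 ± 0.04, limma adjusted p = 0.284), positive on all 7 arrays with a value, and 1 spot of replicate 1 had been set aside as an outlier. On slide 2 alone Bmf had 0.24 (limma adjusted p = 0.004571). Bmf was the most even of the 36 genes between replicates, but another, dimmer probe had −0.06. The dye orientations were less even: over the replicates the brightest Bmf probe had 0.29 with null in Cy5 and 0.13 with null in Cy3. Bid, which caspase 8 cleaves to link the death receptors to mitochondria, had levels of 327.2, 495.2 and 469.8 in null against 321.6, 414.7 and 403.4 in wild type. Its ratios were 0.03, 0.26 and 0.22 (0.17 ± 0.12, limma adjusted p = 0.359), between −0.04 and 0.12 on the arrays of replicate 1 and 0.24 on slide 2 alone (limma adjusted p = 0.004423). In replicate 1 the Bid ratio was positive only with null in Cy5. In replicates 2 and 3 it was 0.38 and 0.45 with null in Cy5, against 0.13 and −0.01 with null in Cy3. Averaged over the replicates, Bid had 0.30 with null in Cy5 and 0.03 with null in Cy3, so its size depended on the dye.

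Bbc3, which encodes Puma, a main p53-induced killer protein, had levels of 2279, 3463 and 3214 in null against 2322, 5018 and 4595 in wild type. Null was lower on slide 2 and close to wild type in replicate 1. There the Bbc3 ratio followed the dye, positive with null in Cy5 and negative with null in Cy3. The ratios were −0.03, −0.54 and −0.52 (−0.36 ± 0.29, limma adjusted p = 0.292), and −0.53 on slide 2 alone (limma adjusted p = 1.982e-07). Pmaip1, which encodes Noxa, another p53 target, had levels of 238.5, 248.8 and 231.8 in null against 198.1, 382.9 and 346.1 in wild type. Null was thus higher in replicate 1 and lower in replicates 2 and 3, with ratios of 0.27, −0.62 and −0.58 (−0.31 ± 0.50, limma adjusted p = 0.461). Bik, found on the endoplasmic reticulum, had −0.06, 0.61 and 0.75. Bad, which growth factor signals hold inactive, had −0.07, 0.12 and 0.31. Both were higher in null on slide 2 and slightly lower in replicate 1. Hrk was well above background on 0 of 8 arrays in either genotype and was not measured.

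**Figure D4:**
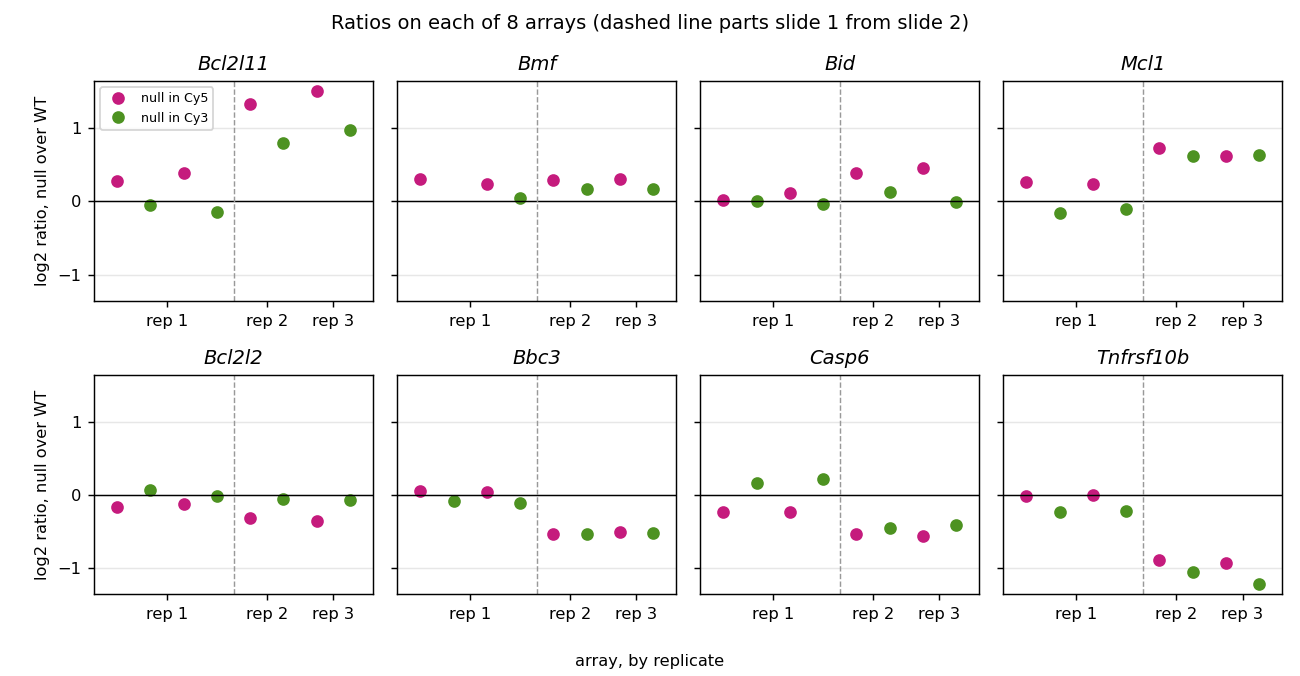
Log2 ratios of null over wild type on each of the 8 arrays for the 8 genes with the same sign in all 3 replicates, with arrays that carried null in Cy5 in magenta and in Cy3 in green; the dashed line parts slide 1 (replicate 1, 4 arrays) from slide 2 (replicates 2 and 3). Arrays of replicate 1 lie between −0.24 and 0.38, and those of slide 2 reach 1.51 for Bcl2l11 and −1.22 for Tnfrsf10b, while Bmf has like values on both slides and 7 points because 1 spot had no value.

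Promoter sequences are shown for Bcl2l11, which had the highest ratio, and for 3 of the p53 targets, Bbc3, Aen and Bax, since the comparison is between kidneys with and without p53. They were picked after the values were seen. RefSeq windows of the GRCm38.p6 build were found for 33 of the 39 genes and cover 250 bases before a start site. Where several starts are listed, the window with the most matches is printed, on the gene's own strand. Capitals mark 3 motifs searched on both strands: the p53 half-site, the FOXO core GTAAACA, and ACGTG, the core of hypoxia response elements, which also lies on both strands of each CACGTG. In the choice of window a p53 half-site weighed most, and a CACGTG counted on each strand.
Bcl2l11, chr2:128125788-128126037, plus strand: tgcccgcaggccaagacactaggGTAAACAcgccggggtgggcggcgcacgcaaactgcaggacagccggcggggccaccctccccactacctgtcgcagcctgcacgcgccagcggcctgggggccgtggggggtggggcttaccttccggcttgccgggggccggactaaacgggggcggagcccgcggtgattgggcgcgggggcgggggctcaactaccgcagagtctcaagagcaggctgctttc
Bbc3, chr7:16310181-16310430, plus strand: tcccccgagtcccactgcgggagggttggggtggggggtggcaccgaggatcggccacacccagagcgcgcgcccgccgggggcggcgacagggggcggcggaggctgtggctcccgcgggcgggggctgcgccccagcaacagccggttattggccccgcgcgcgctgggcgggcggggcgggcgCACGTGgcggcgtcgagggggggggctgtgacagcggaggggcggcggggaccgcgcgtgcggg
Aen, chr7:78895808-78896057, plus strand: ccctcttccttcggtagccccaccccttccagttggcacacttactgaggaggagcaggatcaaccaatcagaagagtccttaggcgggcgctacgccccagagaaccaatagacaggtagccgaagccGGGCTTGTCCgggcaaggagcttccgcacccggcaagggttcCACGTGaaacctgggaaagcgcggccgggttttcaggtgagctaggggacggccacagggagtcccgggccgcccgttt
Bax, chr7:45466899-45467148, minus strand: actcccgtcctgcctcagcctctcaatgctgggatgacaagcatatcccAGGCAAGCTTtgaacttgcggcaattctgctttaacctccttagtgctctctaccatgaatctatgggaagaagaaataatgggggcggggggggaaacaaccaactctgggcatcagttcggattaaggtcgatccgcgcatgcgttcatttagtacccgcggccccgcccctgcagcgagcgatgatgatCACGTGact
The capitals in Bcl2l11 are a GTAAACA that begins 227 bases before the start. In Bbc3 they are a CACGTG, in Aen a p53 half-site that begins 121 bases before the start and a CACGTG, and in Bax a p53 half-site that begins 201 bases before the start and a CACGTG. A p53 half-site was found for 3 of 33 genes (Aen, Bax and Bmf), against 8.2% of 27025 genes with a window. GTAAACA was found for 2 of 33 (Bcl2l11 and Bbc3, the last in the window of another start), against 3.54% of genes, and ACGTG for 9 of 33, against 18.5%. A match is a run of letters and not a measured site, and Aen, Bax and Bmf had mean ratios of 0.45, −0.06 and 0.21.

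Behind the mitochondrion, Apaf1 forms the apoptosome, a wheel on which caspase 9 is activated, and caspase 6 is an executioner caspase that cuts lamins. Casp6 had levels of 6841, 7907 and 7450 in null against 6941, 11120 and 10470 in wild type. Null was lower on slide 2 and level with wild type in replicate 1. The ratios were −0.02, −0.49 and −0.49 (−0.33 ± 0.27, limma adjusted p = 0.297). In replicate 1 the Casp6 ratio followed the dye, negative on both arrays with null in Cy5 and positive on both with null in Cy3. Apaf1, also a p53 target, had 0.03, −0.31 and −0.27 on its brightest probe and −0.27 on average on another. Casp9 had 0.11, 0.02 and −0.06. Within slide 2 Apaf1 and Casp6 were called lower (−0.29 and −0.49, limma adjusted p = 0.0007981 and 6.171e-07), as 27.1% of all genes were. Casp9 was not called there (−0.02).

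The PIDDosome, in which Pidd1 and the adaptor Cradd activate caspase 2, had no common direction. Casp2 had ratios of 0.24, −0.07 and −0.29. Pidd1, itself induced by p53, had −0.20, 0.28 and 0.55 on its brightest probe. Its dimmer probes had 0.14 and −0.01 on slide 2, and the last was negative in every replicate. Cradd had 0.12, −0.07 and −0.14. On the brightest probe of each of these genes the sign in replicate 1 was opposite to that on slide 2.

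The inhibitor of apoptosis proteins, which bind caspases or their activators, had 1 of 3 members higher and 2 lower. Xiap, which blocks caspases directly, had 0.10, 0.16 and −0.07. The ubiquitin ligase gene Birc2 had 0.21, −0.11 and −0.14. Its relative Birc3 had 0.06, −0.30 and −0.49. None of these had the same sign in all 3 replicates. Diablo, their antagonist from the mitochondrion, had −0.16, 0.28 and 0.37. The protease Htra2, another antagonist, had −0.10, 0.23 and 0.35. On slide 2 both antagonists were higher while Birc3 was lower, and in replicate 1 each of these 3 ratios had the opposite sign. Aifm1, an oxidoreductase that moves to the nucleus in dying cells, had levels of 3437, 1547 and 1524 in null against 3454, 895.8 and 962.7 in wild type. Its ratios were −0.01, 0.79 and 0.66 (0.48 ± 0.43, limma adjusted p = 0.297), and a second probe had 0.23 on average. Endog, a mitochondrial nuclease, had −0.14, 0.13 and 0.17. Within slide 2 Diablo, Htra2 and Aifm1 were called higher, as 32.9% of all genes were, and Endog was not (0.15, limma adjusted p = 0.0735).

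In the death receptor pathway, Tnfrsf10b had the lowest mean ratio of the 36 genes. It encodes the mouse receptor for the ligand TRAIL and is a p53 target. Its levels were 96.87, 150.5 and 148 in null against 105.1, 295.5 and 312.1 in wild type. Null was below wild type in each replicate, and its levels in replicates 2 and 3 still exceeded the wild-type level of replicate 1. The ratios were −0.12, −0.97 and −1.08 (−0.72 ± 0.53, 0.606 of the wild-type level, limma adjusted p = 0.279), with an array range from −1.22 to 0.00 and a median of −0.56. On slide 2 alone Tnfrsf10b had −1.03 (limma adjusted p = 4.196e-13). The size moved with the background correction, since the probe is dim: it was −0.99 with an offset of 16 and −1.41 by the scanner program's own ratio (limma adjusted p = 0.2694 and 0.271). A second probe had 0.02, −0.84 and −1.08, the same pattern by slide. With all 8 arrays in the fit and the replicate as a random effect, Tnfrsf10b was the only one of the 36 genes to pass (−0.69, limma adjusted p = 0.04481), where 4.6% of probes passed.

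Fas, the other p53-induced death receptor, had levels of 137, 187.8 and 182 in null against 136.7, 201.3 and 205.9 in wild type. These lay close together on a dim probe, and the ratios were 0.00, −0.10 and −0.18 (−0.09 ± 0.09, limma adjusted p = 0.540). Fadd, the adaptor of both receptors, had ratios of −0.16, 0.58 and 0.72. Casp8, the initiator it activates, had levels of 703.3, 1081 and 1261 in null against 900.8, 717.1 and 722.6 in wild type, with ratios of −0.36, 0.59 and 0.80 (0.35 ± 0.62, limma adjusted p = 0.491). The sign was opposite between slides for Fadd and Casp8, so the SD exceeded the mean. Cflar, the decoy that blocks caspase 8, had 0.35, −0.10 and −0.20 on its brightest probe. Dimmer probes with another identifier had 0.17, 0.02 and 0.01, and 0.20, 0.10 and −0.02, also highest in replicate 1. A dimmer probe with the same identifier as the brightest had −0.19, 0.03 and 0.17, so not every Cflar probe had this pattern by slide. Tradd, an adaptor that serves both survival and death signals, had −0.07, 0.32 and 0.25. The kinase Ripk1, which acts with it, had −0.14, 0.26 and 0.31. Tradd and Ripk1 thus followed Fadd and Casp8 in sign, by slide.

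Perp and Aen are further p53-induced effectors, a membrane protein of desmosomes and a nuclease. Perp had levels of 379, 561.4 and 564.6 in null against 405.6, 313.9 and 295.9 in wild type, with ratios of −0.10, 0.84 and 0.93 (0.56 ± 0.57, limma adjusted p = 0.317). Aen had levels of 463.7, 498.3 and 546.5 in null against 550.3, 301.3 and 300.2 in wild type, with ratios of −0.25, 0.73 and 0.86 (0.45 ± 0.61, limma adjusted p = 0.393). Both were higher in null on slide 2 and lower in replicate 1, and a second, dim Aen probe had 0.01. By the brightest probe of each, the p53-induced genes had no common direction on slide 2. Tnfrsf10b, Pmaip1, Bbc3 and Apaf1 were called lower there, as 27.1% of all genes were, and Perp, Aen and Pidd1 higher, as 32.9% were. The dim Aen probe had 0.08 on slide 2. Bax and Fas were not called (−0.03 and −0.14, limma adjusted p = 0.7227 and 0.09106 within slide 2). Dffa, the chaperone and inhibitor of the nuclease that cuts chromatin, had −0.31, 0.08 and 0.23. The nuclease gene Dffb was well above background on 6 arrays in null and on 4 in wild type, which left it unmeasured.

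**Figure D5:**
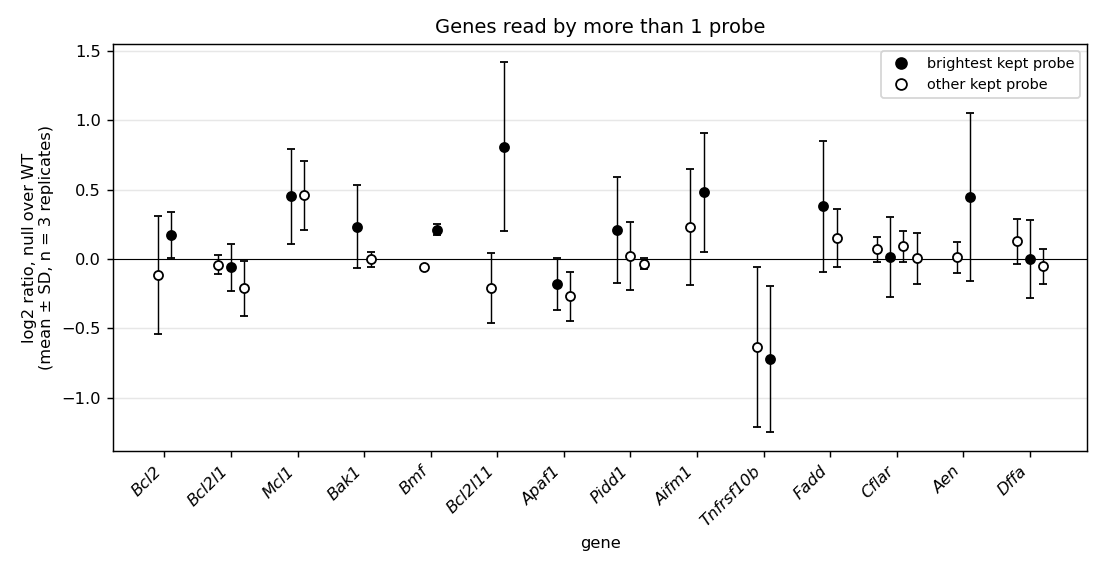
For the 14 genes with more than 1 measured probe, points are the mean log2 ratio (null over wild type) of each probe over 3 replicates, bars are the SD, filled points mark the brightest probe, which stands for the gene, and open points mark the others. The probes of Mcl1 (0.45 and 0.46) and of Tnfrsf10b (−0.72 and −0.63) lie together, and those of Bcl2l11 (0.81 and −0.21) lie on either side of 0.

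Of the 14 genes with several measured probes, 6 had probes of both signs: Bcl2, Bak1, Bmf, Bcl2l11, Pidd1 and Dffa. For Bak1, Bmf, Pidd1 and Dffa at least 1 of these means was within 0.06 of 0. The mean over all measured probes of a gene put the pro-apoptotic median at 0.08 and the difference from the anti-apoptotic median at 0.07.

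Beyond the 39 genes, 74 further genes of these pathways were listed and 61 were measured, 30 higher and 31 lower in null, with a median of −0.00. With limma 0 passed, and 18 of the 61 had an unadjusted p under 0.05, a larger share than the 18.2% of all genes. That difference was not tested, since the list was chosen with earlier results known. Cycs, which encodes the cytochrome c that the pore releases, had ratios of 0.17, 1.39 and 1.33 (0.96 ± 0.69), higher on 8 of 8 arrays. Parp1, a caspase substrate that repairs DNA, had −0.30 ± 0.30, and Birc5, the mitotic survivin, −0.01 ± 0.34.

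Of the rest of that list, 6 genes had the smallest p. Casp8ap2, a nuclear partner of caspase 8, had 0.43 ± 0.13. Tnfrsf21, a death receptor, had −0.31 ± 0.06. Ppp1r13l, which encodes the p53 inhibitor iASPP, had −0.31 ± 0.11. The other 3 were higher in null. Bnip2 had 0.34 ± 0.15, Endod1 had 0.53 ± 0.32, and Pea15a, a death effector domain protein, had 0.39 ± 0.20. None of the 6 passed (limma adjusted p = 0.279 for each). By replicate, Casp8ap2 had 0.28, 0.53 and 0.49, and Tnfrsf21 had −0.26, −0.37 and −0.31. Bnip3, a hypoxia-induced Bcl2 relative of the mitochondrion named here after its values were seen, had 0.12, −3.52 and −3.77, and is 1 of the 17 hypoxia genes above.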

How the data were processed

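Null and wild-type embryonic kidney RNA was compared on 8 two-colour Agilent arrays in 3 biological replicates, each with swapped dyes. The authors deposited scanner files with linear intensity for each spot and its background, from Feature Extraction version 10.5.1.1 (per the file headers) or 6.1 (per the submitters' processing notes). Per the file headers these also give the program's own ratio in log10, red over green, and the deposited value table is in log10 too. Here the median spot and background intensity went through normexp background correction (offset 50), then loess within arrays (limma 3.58.1, R 4.3.3), with the 1639 control spots at weight 0 and outlier spots missing; 0 spots were saturated. This offset shrinks the ratios of probes with little signal. Arrays were turned to log2 null over wild type and averaged by dye orientation within a replicate. Levels come from the same values after Aquantile scaling between arrays.

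Kept were probes with 1 genotype well above background on at least a share of 0.5 of the arrays of each replicate. This left 20865 probes with a value in each replicate, 55 of the 64 probes of the listed genes among them. Probes were named by RefSeq identifier in the GRCm38.p6 annotation (25097 of 41174), and the brightest kept probe stands for a gene. limma's moderated test of 3 values against 0 was two-sided, with 4.22 degrees of freedom and Benjamini-Hochberg adjustment over all probes; sign permutations of 3 values cannot go below p = 0.25. Within slide 2 the same test used 2 values, so the spread came mostly from all probes and little from the gene itself.

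Genes were given in each replicate where the 3 replicates shared a sign and the dye orientations, each averaged over the replicates, did too. Those with an unadjusted p under 0.05 were also given so, and the others by role group. Within a single replicate the orientations could still differ in sign. Of the further pathway genes 5 were fixed by name and 6 taken by smallest p; some of these are not reported here but stayed in all counts. The genes, lists and rules were chosen with earlier results of these data known. Slide and replicate 1 cannot be told apart, since slide 1 holds replicate 1 alone. Only the arrays of slide 1 had been extracted in the extended dynamic range mode, per the file headers. The number of arrays limits the precision.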

Additional observations from a re-analysis of the deposited data

How the results depend on the processing

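With limma 0 probes passed in the reported fit. Without one replicate the count ranged from 0 (without replicate 2 or 3) to 11689 (without replicate 1, 6421 higher and 5268 lower). All 8 arrays with the replicate block as a random effect gave 959 probes (484 higher, 475 lower, within-replicate correlation 0.545). These were 4.6% of probes, with Tnfrsf10b alone of the 36 genes. Slide as a fixed block gave 8521 (4148 higher, 4373 lower), 40.8% of probes, and 16 of the 36 genes. But only replicates 2 and 3 give that fit a spread, and 1 value per slide gave 0. Slide as a random block was not run, since no correlation could be estimated from 3 values.

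The anti-apoptotic median was 0.13 with median centring in place of loess, where the median of all genes was 0.15 and 29 of the 36 genes were higher and 7 lower. Bcl2l2 reversed there to 0.0514 (limma adjusted p = 0.8834). Under the same centring Bbc3 had −0.10 and Casp6 −0.06, and Mcl1, Bmf and Bid had 0.72, 0.45 and 0.34. With the mean of its probes Bcl2l11 had 0.30. For each of these the cause was not tested. Leaving out a replicate gave pro-apoptotic medians of 0.06 to 0.24, anti-apoptotic medians of −0.04 to 0.09 and differences of −0.02 to 0.28. Dim probes, whose ratios the offset compresses, limit what can be read for Bad, Tnfrsf10b, Fas, Bcl2l1 and Bik, and for Casp9 on slide 2. By the scanner program's own ratio Fas had −0.18 and Bik 0.77, against −0.09 and 0.43 in the reported fit.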
